A study of Mus musculus with 6 samples.

Results

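Cytosolic ribosomal protein genes encode the protein parts of the ribosome that translates nuclear-encoded mRNA. They were taken as all protein-coding genes of the expression table whose whole symbol is Rps or Rpl and a number. An optional letter (a, x, y or l) and an optional further number could follow, and Rplp0, Rplp1, Rplp2 and Rpsa were included. Symbols with other endings, such as that of the kinase gene Rps6kb1, were left out, and 82 of 30071 genes met this rule. Of these, 32 encode proteins of the small (40S) subunit and 50 encode proteins of the large (60S) subunit, and they lie on 19 chromosomes. The cells were MC3T3-E1, a pre-osteoblast line of the mouse, grown on polyetheretherketone (PEEK), a plastic of bone implants that here had a nano- and microstructured surface, and their poly(A) RNA was sequenced. The 3 control libraries came from cells on this surface alone, and the other 3 came from cells on the same surface that also received supernatant of the mouse macrophage line RAW264.7. The surface under those macrophages was not given in the sources used here. In each group the titles of libraries 2 and 3 mention a biological replicate and the title of library 1 does not. Whether cultures were separate is stated nowhere else. A p-value here therefore sets the difference between groups against the spread of these libraries within groups, which may be technical in part. The libraries are called PEEK alone 1 to 3 and supernatant 1 to 3.

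A ribosome holds 1 copy of nearly every ribosomal protein, so cells keep the supply of these proteins in balance across many unlinked genes. Their mRNAs are short, abundant and stable, and most begin with an oligopyrimidine tract directly at the cap, the TOP motif. Through this motif the protein Larp1 and the kinase mTOR govern how many of the mRNAs are translated, so an mRNA level need not follow the amount of protein. Osteoblasts that lay down collagen matrix depend on high translation capacity. In the mouse genome, ribosomal protein mRNAs are also the source of many processed pseudogenes, retrotransposed copies whose sequence can be nearly the same as that of the parent gene.

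Runs of pyrimidines were looked for in the 30 bases centred on each gene's annotated start, taken from RefSeq promoter sequences on the build GRCm38.p6. Such promoter sequences were available for 62 of the 82 genes. The sequences below were chosen to show genes with a long run (capitals mark the longest unbroken run of C and T) beside 2 of the most abundant genes, Rplp0 and Rpsa, whose annotated start carries only a short run. They run 5′ to 3′ on the strand of the gene. A run in this window need not begin at the cap: in Rpl4 it lies wholly before the annotated start. None of the deposited values bears on transcription starts.
Rpl7a (chr2:26910792-26910821, plus strand): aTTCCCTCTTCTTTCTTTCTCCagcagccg
Rpl4 (chr9:64173372-64173401, plus strand): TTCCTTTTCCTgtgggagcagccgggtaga
Rps6 (chr4:86857353-86857382, minus strand): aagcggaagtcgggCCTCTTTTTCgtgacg
Rplp2 (chr7:141447636-141447665, plus strand): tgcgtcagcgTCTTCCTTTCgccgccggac
Rpl22l1 (chr3:28805493-28805522, plus strand): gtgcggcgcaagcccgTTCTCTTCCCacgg
Rps27 (chr3:90213634-90213663, minus strand): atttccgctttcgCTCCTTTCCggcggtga
Rplp0 (chr5:115559452-115559481, plus strand): gTCTTCgggtttcgaggaccgcctggttct
Rpsa (chr9:120127751-120127780, plus strand): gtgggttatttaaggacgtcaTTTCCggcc
The longest run was 21 bases in Rpl7a and 5 bases in Rplp0 and in Rpsa.

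A run of at least 8 pyrimidines lay in this window in 25 of the 62 genes (40.3%), against 11.9% of all 27025 promoters of the table. Other motifs were searched on both strands of the whole promoter, from 250 bases before to 50 bases after the start. The letters CCGGAAG, a core recognised by ETS-family factors, were found in 40.3% of the genes and in 9.12% of all promoters. TATAAA, the core of the TATA box, was found in 9.68% and 14.2%. GGGCGG, the GC box, was found in 59.7% and 35.9%, CTCTTTC in 27.4% and 8.02%, and ATGGCGG in 16.1% and 4.19%. CTCTTTC can lie inside a pyrimidine run, and matches of the other motifs can overlap at their ends. A match of letters is a description and no evidence that a factor binds there.

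The ribosomal protein genes together made up about 3% of the counted mRNA, and the difference between the groups was smaller than the spread between libraries. They held 3.00%, 2.96% and 3.26% of all counts in PEEK alone 1 to 3, and 2.47%, 3.08% and 3.35% in supernatant 1 to 3. Both the lowest and the highest share were in the supernatant group, so the groups overlap. The group means were 3.07% ± 0.162 and 2.97% ± 0.451 (SD, n = 3), a difference of -0.105 percentage points that is smaller than either SD. Without supernatant 1 it was 0.143 percentage points. In FPKM (fragments per kilobase of gene model, scaled to library depth) the shares were 5.53% ± 0.227 and 5.47% ± 0.695 (SD, n = 3). Total counts were 74927500 to 82803173 per library. Such shares come from bulk RNA, in which fewer cells of a type and less RNA per cell cannot be told apart.

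Tested gene by gene with edgeR's quasi-likelihood test, none of the 81 genes that passed the filter on low counts reached a Benjamini-Hochberg adjusted p under 0.05, in either direction. Among all 18177 genes tested, 0.0165% reached it (0.011% higher and 0.0055% lower with supernatant). At an unadjusted p under 0.05 there were 4 of the 81 genes, or 4.94%, against 8.95% of all genes (4.65% higher and 4.3% lower), namely Rpl7a (higher mean with supernatant) and Rps12, Rpl35a and Rpl39 (lower means). DESeq2, a second count test, called 1 gene higher (Rpl7a) and 0 lower, against 0.974% and 0.759% of all genes. The 3 libraries of one group did not overlap those of the other for 3 genes with higher values with supernatant (Rpl7a, Rpl17 and Rpl29) and 3 with lower ones (Rpl22l1, Rpl34 and Rpl35a). That is 3.7% in each direction, against 7.83% and 7.36% of all genes. Rpl35a was picked out for these counts after its values were seen; its log2 fold change was -0.22 ± 0.09 (SE).

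A small displacement ran through nearly all of the genes. The log2 fold change (supernatant minus PEEK alone) was below 0 for 73 of the 81, or 90.1%, against 51.7% of all genes tested. Its median was -0.10, against -0.01 over all genes tested, and 67 genes lay between -0.25 and 0. The median was -0.15 over the 40S genes and -0.10 over the 60S genes, a difference of -0.05. A typical gene's standard error was 0.12, larger than the median displacement.

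**Figure D1:**
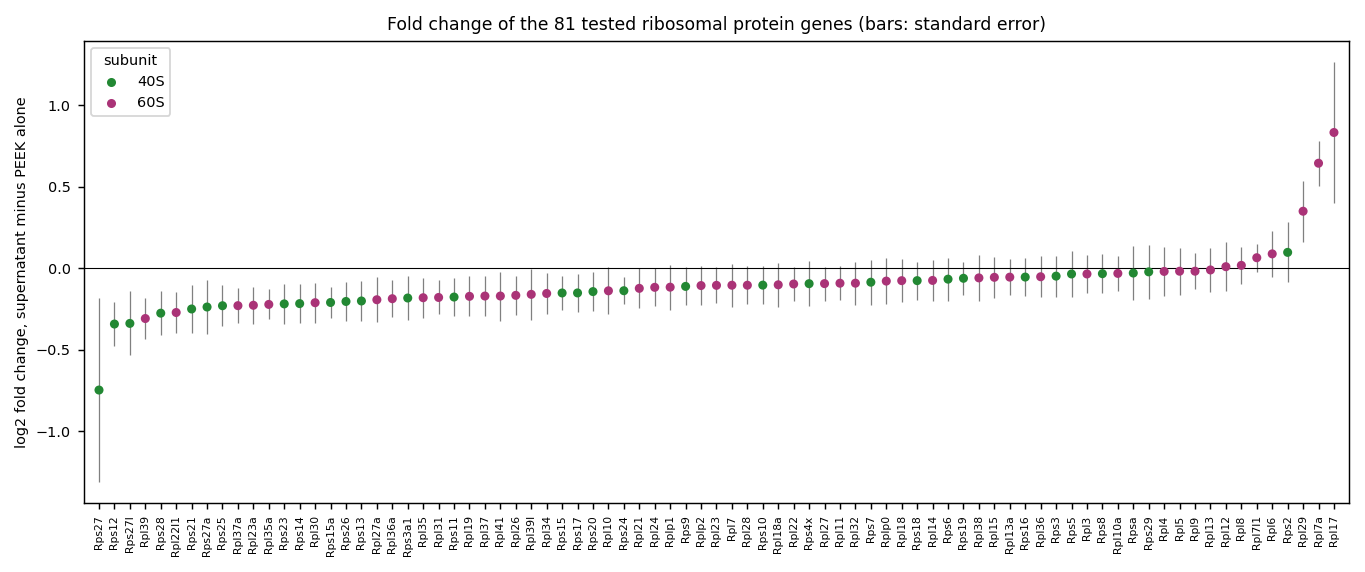
Each point is the log2 fold change (vertical axis, supernatant minus PEEK alone, edgeR) of 1 of the 81 tested ribosomal protein genes, ordered from lowest to highest and coloured by subunit; bars are ± 1 standard error. Most points sit just under 0, and Rps27 at the low end and Rpl29, Rpl7a and Rpl17 at the high end stand away from the rest.

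This displacement rested on 1 library. Relative to the mean of the PEEK alone libraries, the median log2 level of the 81 genes was -0.03, -0.06 and 0.10 in PEEK alone 1 to 3. With supernatant it was -0.37, -0.05 and 0.07 in libraries 1 to 3. Supernatants 2 and 3 therefore lay within the range of the controls, and supernatant 1 lay apart from the other 5 libraries. It was the lowest of the 6 libraries for 69 of the 81 genes (85.2%), against 21.1% of all genes tested, and 77 of the 81 were under the control mean in it. The exceptions were Rpl17, Rpl29, Rpl7a and Rpl7l1. Without supernatant 1 the median log2 fold change was 0.01, with 43 genes above 0 and 38 below. It was -0.06 without PEEK alone 3 and -0.19 without supernatant 3.

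**Figure D2:**
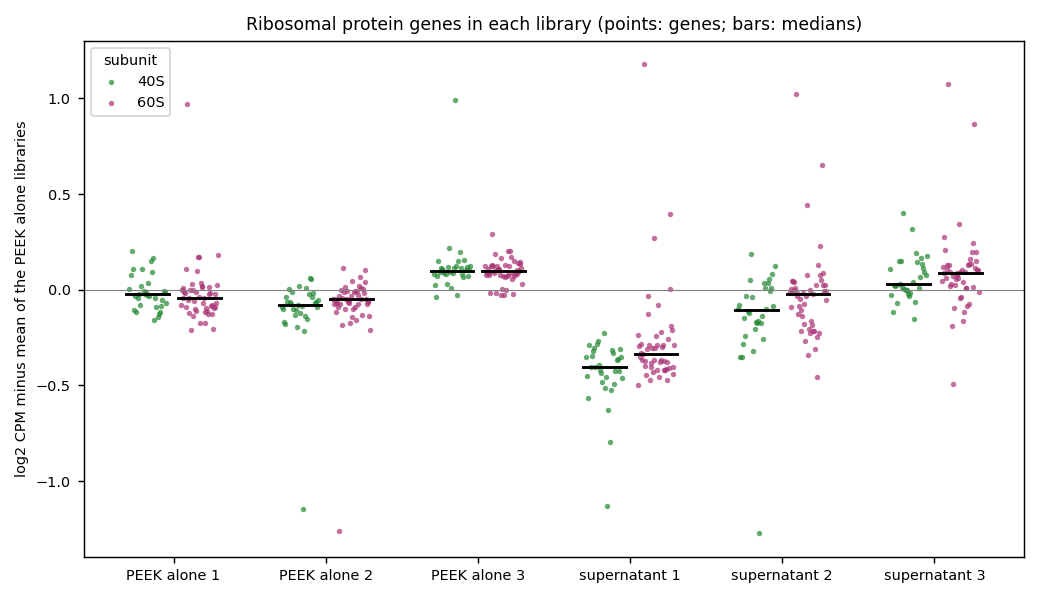
Log2 CPM (counts scaled to library size) of each tested ribosomal protein gene in each library, minus its mean over the PEEK alone libraries, with 40S genes (32) and 60S genes (49) drawn side by side; black bars are medians. In supernatant 1 the medians are -0.40 and -0.34, and in the other 5 libraries they lie between -0.11 and 0.10.

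Other genes set supernatant 1 apart as well. Osteoblast lineage markers, of which 10 of 11 were tested, had a median deviation of 0.49 in it, against -0.01 to 0.08 in the control libraries and -0.09 and -0.35 in supernatants 2 and 3. Alpl, the alkaline phosphatase of mineralising cells, stood at 83.7 CPM in supernatant 1 and at 16.2 to 29.7 CPM in the other 5 libraries. The summed level of the 11 osteoblast markers was 7846 to 8954 CPM on PEEK alone and 5412 to 9436 CPM with supernatant. Most of it came from the collagen gene Col1a2, and none of the 11 was at 0 in all libraries. The lowest sum was in supernatant 2 and the highest in supernatant 1, so this sum does not set supernatant 1 alone apart. Macrophage markers, checked because the added supernatant came from macrophages, summed to 9.69 to 13.4 CPM on PEEK alone and to 8.12 to 11.99 CPM with supernatant over the 8 of 11 listed genes that had values. The pan-leukocyte gene Ptprc was at 0 in 5 of the 6 libraries. Of the 2 markers of smallest p in each list, Col1a1 had a log2 fold change of -0.37 and Alpl of 0.82. Cd68 was at -0.43 and Cd14 at -0.17, and none of the 4 reached an adjusted p under 0.05 (edgeR, 0.677 to 0.839). The part these differences have in the level of the ribosomal protein genes was not tested.

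Ribosomal proteins are needed in equal numbers, yet the levels of the 81 tested genes spanned 333-fold, from 2.53 FPKM for Rpl29 to 842 FPKM for Rplp0 (means over the 6 libraries). At least 500 FPKM were reached by 10 genes, at least 100 FPKM by 41 and at least 50 FPKM by 56, and 4 of the tested genes were under 10 FPKM. FPKM divides by the length of the gene model that the authors used. That length, worked out from the ratio of counts to FPKM, had a median of 1836 nt, 2.07 times the length of the principal transcript in GENCODE M21 (median over genes of the ratio; range 1.03 to 7.01). The principal transcripts of the 81 genes had a median length of 878 nt, against 2982 nt over all tested genes with one. FPKM values thus understate these short mRNAs by a factor that differs between genes. Scaled to the principal transcript instead, the span between the highest and the lowest gene was 337-fold. Both spans leave out counts placed on pseudogenes named after the genes. These held 85.9% of the counts in the family of Rpl34, another low gene, and 12.5% in the Rpl29 family. The level of Rpl34 therefore depends on how reads were placed. Rpl29 sets the low end of both spans, and its named copies held only the smaller part of its family's counts.

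**Figure D3:**
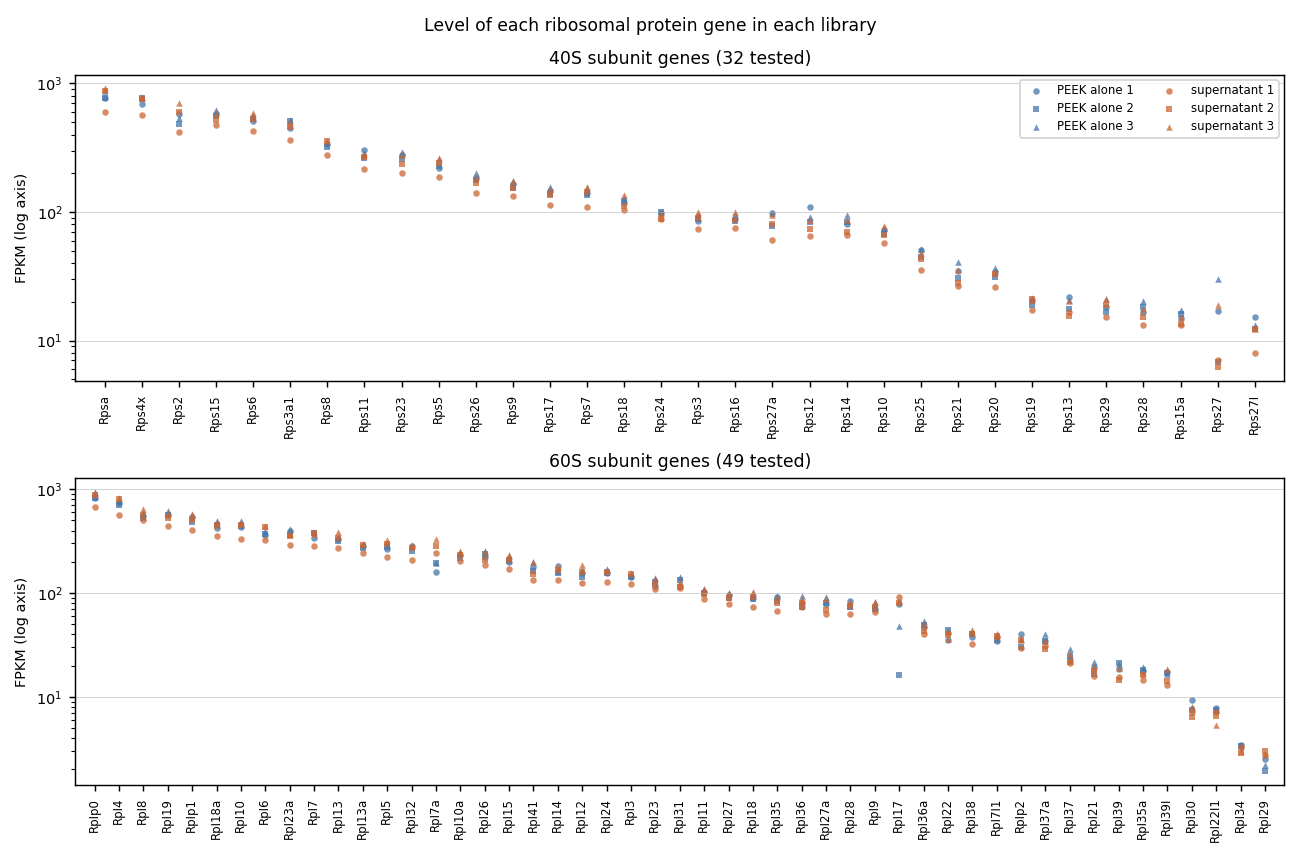
FPKM (log axis) of the 81 tested ribosomal protein genes in each of the 6 libraries, with 40S genes above and 60S genes below, each ordered by mean level; colour gives the group and marker shape the replicate number. Supernatant 1 (orange circles) is the lowest point for most genes, and Rpl17 and Rps27 vary far more between libraries than their neighbours.

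The most abundant genes encode proteins of both subunits. Rplp0 is the base of the stalk, the flexible arm of the large subunit that recruits the translation factors that hydrolyse GTP. It stood at 828, 820.2 and 936 FPKM on PEEK alone and at 669, 872 and 926 FPKM with supernatant, and its log2 fold change was -0.08 ± 0.14 (SE). Its stalk partners Rplp1 and Rplp2 bind to it as dimers. Rplp1 stood at 544, 479 and 568 FPKM against 402, 508 and 571 FPKM. Rplp2 was far lower in this measure, at 40.6, 30.4 and 35.8 FPKM against 29.8, 35.1 and 35.2 FPKM. The groups overlapped for all 3 stalk genes, and supernatant 1 was the lowest library of each.

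Rpsa, a 40S protein that is also known as the laminin receptor precursor, stood at 777, 774 and 871 FPKM on PEEK alone and at 604, 874 and 915 FPKM with supernatant. Rpl4 lines part of the exit tunnel of the large subunit, and its values were 728, 705 and 765 FPKM against 567, 798 and 820.5 FPKM. Rps4x, the X-linked gene of a 40S protein, was at 688, 769 and 771 FPKM against 569.5, 755 and 779 FPKM. For these 3 genes supernatant 1 was below every control library, and supernatants 2 and 3 were within or above the range of the controls. Their log2 fold changes were -0.03 ± 0.17, -0.02 ± 0.15 and -0.09 ± 0.14 (SE). Among neighbours in the order of levels, Rplp0, Rpsa, Rpl4 and Rps4x differed by less than the range over their own libraries.

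Several 40S genes have known links to signalling or disease. Rps6, the target of the S6 kinases downstream of mTOR, stood at 508, 525 and 569.6 FPKM on PEEK alone and at 427, 529 and 588 FPKM with supernatant. Rps19, the gene most often mutated in human Diamond-Blackfan anaemia, was at 20.8, 18.8 and 21.4 FPKM against 17.4, 20.98 and 20.6 FPKM. Rps14, whose loss of 1 copy is linked to the human 5q- syndrome, was at 80.4, 83.1 and 94.3 FPKM against 66.8, 70.0 and 87.0 FPKM. The groups overlapped for each; supernatant 1 was the lowest library in all 3, and in Rps14 supernatant 2 was also below every control. The log2 fold changes were -0.07 ± 0.13, -0.06 ± 0.10 and -0.22 ± 0.12 (SE). In Rps14, counts may include reads of Ndst1, which overlaps it on the opposite strand, because the strand setting of the counting was not given in the sources used here. The same holds for Rps25, Rpl28, Rpl18, Rpl35 and Rps28, whose antisense neighbours also held more than 10% of the gene's own mean count.

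Rpl5 and Rpl11 enter the large subunit together with 5S rRNA, and when subunit assembly is disturbed they bind Mdm2, the inhibitor of p53. Rpl5 stood at 267, 279.6 and 295 FPKM on PEEK alone and at 222, 294 and 322 FPKM with supernatant. Rpl11 was at 102, 99.98 and 109 FPKM against 87.2, 96.9 and 111 FPKM. In each the supernatant group held both the lowest and the highest library. Their log2 fold changes were -0.02 ± 0.14 and -0.09 ± 0.11 (SE).

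The 40S genes of lowest log2 fold change at 50 FPKM or more were Rps12, Rps27a and Rps23. Rps12 stood at 109, 83.4 and 91.0 FPKM on PEEK alone and at 65.3, 73.2 and 87.0 FPKM with supernatant, a log2 fold change of -0.34 ± 0.13 (SE; edgeR adjusted p = 0.51). Rps27a, which is made as a fusion with ubiquitin, was at 98.4, 78.4 and 98.8 FPKM against 60.8, 80.6 and 94.1 FPKM. Rps23, a protein of the decoding centre, was at 276, 259 and 291 FPKM against 203, 238 and 276 FPKM. In the 60S subunit the corresponding gene was Rpl23a, at the mouth of the exit tunnel where the signal recognition particle docks, at 395, 363 and 416 FPKM against 290.3, 354 and 367 FPKM. The groups overlapped for all 4 genes, and supernatant 1 was the lowest library in each. Log2 fold changes of the last 3 were -0.24, -0.22 and -0.23, and their adjusted p was 0.613 to 0.73 (edgeR). Without supernatant 1 these 3 were at -0.06, -0.09 and -0.11, and Rps12 was at -0.23.

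At the upper end, Rps2 stood at 582, 485 and 541 FPKM on PEEK alone and at 419.9, 605 and 707 FPKM with supernatant. Rpl6 was at 359, 369 and 397 FPKM against 323, 437 and 445 FPKM. In both, supernatant 1 was below all controls and supernatants 2 and 3 were above them. Their log2 fold changes were 0.10 ± 0.18 and 0.09 ± 0.14 (SE).

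The 4 tested genes of lowest FPKM, Rpl29, Rpl34, Rpl22l1 and Rpl30, all belong to the 60S subunit. Rpl29 was listed at 2.50, 1.93 and 2.19 FPKM on PEEK alone and at 2.73, 2.99 and 2.81 FPKM with supernatant, and the groups did not overlap (log2 fold change 0.35 ± 0.19, SE; edgeR adjusted p = 0.633). Rpl34 was listed at 3.46, 3.35 and 3.36 FPKM against 3.31, 2.89 and 3.04 FPKM, again without overlap. Rpl30 was at 9.37, 7.41 and 8.02 FPKM against 7.16, 6.46 and 8.01 FPKM, and the groups overlapped. For Rpl34, most counts of the family lay elsewhere. Its pseudogene Rpl34-ps1 (chr6:71101594-71101947, plus strand, in the deposited coordinates) held 57.5, 51.7 and 66.1 CPM on PEEK alone and 44.2, 49.7 and 55.0 CPM with supernatant, whereas Rpl34 itself held 9.41, 9.26 and 9.31 CPM against 8.84, 7.99 and 8.33 CPM. Copies thus took 85.9% of the counts of the Rpl34 family. Gene and copies summed to 66.9, 61.0 and 75.5 CPM in the controls against 53.1, 57.6 and 63.5 CPM in the supernatant libraries, so for the sum the groups overlapped. Copies took 12.5% of the counts in the Rpl29 family and 28.6% in the Rpl30 family.

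Some ribosomal proteins have a paralog that can take their place in the ribosome. Rpl22l1, the paralog of Rpl22, was at 7.86, 7.50 and 7.43 FPKM on PEEK alone and at 7.16, 6.51 and 5.41 FPKM with supernatant. The groups did not overlap, and the lowest library was supernatant 3 rather than supernatant 1. Its log2 fold change was -0.27 ± 0.13 (SE; edgeR adjusted p = 0.587). Rpl22 itself was at 35.6, 44.0 and 43.3 FPKM against 41.0, 39.3 and 35.9 FPKM, with a log2 fold change of -0.10. Rps27l, the p53-responsive paralog of Rps27, was at 15.4, 12.3 and 13.2 FPKM against 8.02, 12.2 and 12.2 FPKM (log2 fold change -0.34 ± 0.20, SE), and its log2 fold change without supernatant 1 was -0.14.

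Rpl39l, described mainly in testis, was at 17.2, 16.96 and 16.5 FPKM on PEEK alone and at 13.03, 14.2 and 18.6 FPKM with supernatant, close to Rpl39 at 18.6, 20.9 and 20.7 FPKM against 15.4, 14.6 and 19.1 FPKM. The groups overlapped in both. Rpl7l1 was at 34.8, 35.5 and 40.2 FPKM against 37.9, 38.9 and 39.9 FPKM, far below Rpl7 at 339, 375 and 385 FPKM against 284, 377 and 371 FPKM. Rpl3l, the striated-muscle paralog of Rpl3, was the 1 gene that did not pass the filter, with 5, 7 and 4 counts in the controls against 10, 10 and 6 counts in the supernatant libraries. Rpl10, which joins the large subunit late in its maturation, was at 435, 438 and 492 FPKM against 332, 448 and 469.9 FPKM. The names Rps4l, Rps3a2, Rps3a3, Rpl6l and Rpl32l fit the pattern of symbols but carried no protein-coding type, so they are not among the 82 and were counted as copies of Rps4x, Rps3a1, Rpl6 and Rpl32.

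Rpl7a gave the smallest p of all 81 genes. This 60S protein gene (chr2:26800776-26803330, plus strand, in the deposited coordinates) stood at 159, 194 and 193 FPKM on PEEK alone and at 245, 284 and 332 FPKM with supernatant, without overlap. Its log2 fold change was 0.64 ± 0.14 (SE), with an unadjusted p of 0.00142 that did not pass across all genes (edgeR, adjusted p = 0.265). DESeq2 called it (adjusted p = 0.00169), and so did edgeR without supernatant 1 (log2 fold change 0.77, adjusted p = 0.0372). In the latter fit Rpl7a was the only gene of the 81 called, against 0.707% of all genes called higher and 0.351% called lower.

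The table also lists Rpl7a-ps11, a processed pseudogene of Rpl7a on the X chromosome (chrX:165637207-165638007, plus strand, in the deposited coordinates), and its values differed in the opposite direction. It held 239, 229 and 255 CPM on PEEK alone and 129, 175 and 174 CPM with supernatant, without overlap. In the same unit Rpl7a held 289, 359 and 359 CPM against 439, 525 and 609.7 CPM. The log2 fold change of Rpl7a-ps11 was -0.60 ± 0.12 (SE; edgeR adjusted p = 0.263, DESeq2 adjusted p = 0.00326). Of the counts on Rpl7a and its 7 named copies together, Rpl7a took 53.6%, 59.7% and 57.1% in the controls against 76.2%, 74.0% and 76.9% in the supernatant libraries, without overlap. The sum of gene and copies was 539, 601 and 627 CPM against 575, 709.7 and 792 CPM, so the groups overlapped, and its log2 fold change was 0.23 ± 0.13 (SE; edgeR adjusted p = 0.637).

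How alike gene and copy are is shown by a stretch of their transcripts from GENCODE M21, printed because reads from such a stretch can be told apart only at the base in capitals. Over the 801 aligned bases, Rpl7a-ps11 had 99.75% identity with the principal Rpl7a transcript, with 2 mismatches. Rpl3 and Rpl34 and their most counted copies are set beside them, also with 2 mismatches each in all. The stretches start at transcript base 235 in Rpl7a, 122 in Rpl3 and 343 in Rpl34, and positions are counted from 1 at the 5′ end of the stretch.
Rpl7a: gccccgctacatcagActgcagcggcaaag
Rpl7a-ps11: gccccgctacatcagGctgcagcggcaaag
Rpl3: gggcttcctgcctcgCaagcgcagcagccg
Rpl3-ps1: gggcttcctgcctcgAaagcgcagcagccg
Rpl34: gaaagcacctaaatcTgcatgtggcgtgtg
Rpl34-ps1: gaaagcacctaaatcCgcatgtggcgtgtg
The differences, gene first, are A16G for Rpl7a, C16A for Rpl3 and T16C for Rpl34.

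Rpl17 had the largest positive log2 fold change and an uneven control group. It stood at 78.0, 16.4 and 47.9 FPKM on PEEK alone and at 91.9, 79.9 and 83.3 FPKM with supernatant. Its log2 fold change was 0.83 ± 0.43 (SE; edgeR adjusted p = 0.625), 1.39 without PEEK alone 1 and 0.42 without PEEK alone 2. Its 7 named copies held 175, 271 and 267 CPM on PEEK alone and 122, 179 and 213 CPM with supernatant, highest where the gene itself was lowest. Gene and copies summed to 281, 294 and 333 CPM against 245, 289 and 327 CPM. Summing brought the log2 fold change to -0.08 and the SD within groups from 0.81 to 0.17 (log2 units).

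Rps27 had the largest negative log2 fold change, -0.75 ± 0.56 (SE; edgeR adjusted p = 0.748), and counts that also varied against those of a copy. With 1 library left out it ranged from -1.45 (without supernatant 3) to -0.15 (without PEEK alone 3), and it was -1.14 without PEEK alone 2, -0.50 without supernatant 1 and -0.47 without supernatant 2. It stood at 17.03, 6.81 and 29.98 FPKM on PEEK alone and at 7.09, 6.20 and 19.0 FPKM with supernatant. Rps27rt, a retrogene copy on chromosome 9, was identical to the Rps27 transcript over 341 aligned bases. In PEEK alone 1 to 3, Rps27 held 18.2, 7.41 and 32.6 CPM and Rps27rt 13.4, 27.5 and 9.52 CPM. In supernatant 1 to 3, Rps27 held 7.49, 6.77 and 20.5 CPM and Rps27rt 17.7, 22.5 and 15.1 CPM. Where the gene was high the copy was low, in both groups. Their sum was 31.6, 34.9 and 42.1 CPM against 25.2, 29.2 and 35.6 CPM, with a log2 fold change of -0.27 and an SD within groups of 0.23 in place of 0.98.

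**Figure D4:**
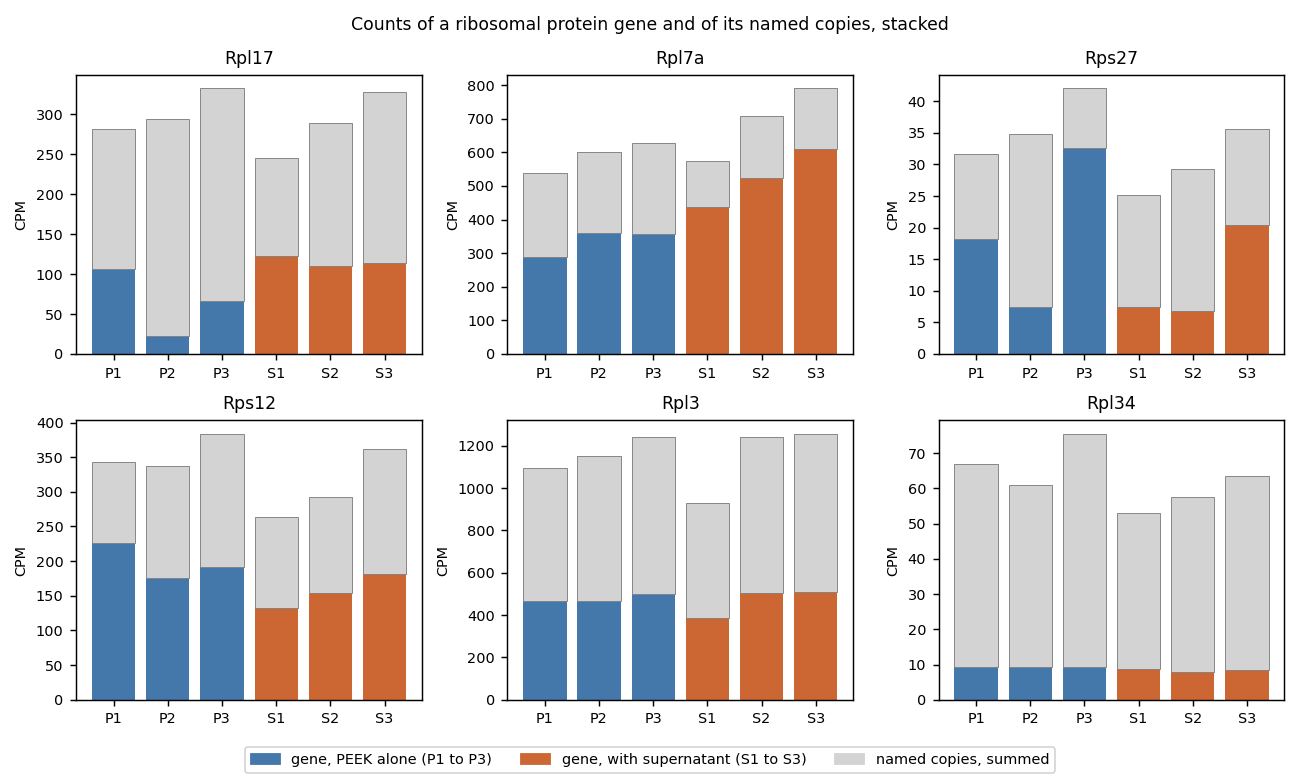
Stacked bars give, in CPM, the counts of 6 ribosomal protein genes (blue on PEEK alone, P1 to P3; orange with supernatant, S1 to S3) and of their named copies summed (grey) in each library. For Rpl17 and Rps27 the boundary between gene and copies shifts from library to library while the totals vary less, for Rpl7a it is higher in all 3 supernatant libraries, and for Rpl3 and Rpl34 the proportions stay nearly constant.

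Such copies touch many of the genes. Copies were taken as pseudogenes and retrogenes named after a gene, and the 5 names without a protein-coding type given above. Copies listed under other names were not searched for, so the numbers below may be too low. At least 1 named copy was listed for 60 of the 82 genes, 238 copies in all, of which 5 had 0 counts in every library. The copies held 0.261% to 0.361% of all counts. In 22 families they held at least 10% of the family's counts, and in 5 at least 50%, namely Rpl34 (85.9%), Rpl17 (69.6%), Rpl21 (63.5%), Rpl3 (59.0%) and Rps27 (53.2%). In these 22 families the most counted copy was 97.0% to 100% identical to the gene's transcript over the aligned bases (median 99.7%). The placing of reads with several matches was not given in the sources used here. The split between gene and copy is therefore uncertain in each of the 22.

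Summing each gene with its named copies, an alternative added after the values were seen, reduced the scatter and left the displacement in place. The SD of the log2 fold change over the 81 genes went from 0.18 to 0.11, and its range narrowed to -0.34 (Rps27l) through 0.35 (Rpl29). The SD within groups was smaller for the sum in 17 of the 22 families. The median log2 fold change was -0.11, with 74 of 81 below 0, and supernatant 1 again stood at -0.37. Neither edgeR (0 of 81, with 2 at an unadjusted p under 0.05) nor DESeq2 (0 of 81) called any summed gene. Rps12 went from -0.34 to -0.21, its copies being at -0.06, and Rpl3 stayed at -0.03.

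Across the 81 genes, those with longer transcripts tended to have the higher log2 fold change (Spearman's rho 0.41 and Pearson's r 0.28 with log2 length). Over all 13396 tested genes with a principal transcript rho was 0.11. With the 81 genes' deviations in single libraries, rho was 0.16, 0.44 and 0.22 in supernatants 1 to 3. In PEEK alone 1 to 3 it was -0.16, 0.20 and 0.006, so the trend was uneven between libraries. These are descriptions over genes that share the same 6 libraries.

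Genes that act on the ribosome outside the list were described from lists drawn up from textbook roles. No gene of these lists reached an adjusted p under 0.05 (edgeR), and counts at an unadjusted p under 0.05 are given for each list. Among 5 further ribosomal proteins the median log2 fold change was -0.11, with 1 gene under that limit, Rpl36al at -0.31 ± 0.13 (SE). Another list held 24 TOP transcripts of other function, such as elongation factors and the noncoding genes Gas5 and Snhg1. Its median was -0.06, with 1 gene under the limit, the intermediate filament gene Vim at -0.28. Tpt1, another classic TOP mRNA, was at -0.24. These 2 lists were also lowest in supernatant 1, at -0.30 and -0.23.

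Of 46 ribosome biogenesis factors, 41 had a log2 fold change above 0, whereas 51.7% of all genes tested were below 0. The median of the list was 0.09, and 6 of its genes were at an unadjusted p under 0.05, a limit passed by 8.95% of all genes. Nop2, an rRNA methyltransferase, was at 0.32 ± 0.10 (SE), and Utp4, a part of the small-subunit processome, at 0.26 ± 0.08 (SE). Both had groups that did not overlap. In the whole list this held for 6 genes with higher values with supernatant and 1 with lower ones, against 7.83% and 7.36% of all genes. Relative to the controls the list's median was -0.09, 0.16 and 0.19 in supernatants 1 to 3, against -0.05 to 0.04 on PEEK alone. Without supernatant 1 its median was 0.20, and 1 of its genes was called, Nolc1, a nucleolar chaperone, at 0.39 (edgeR adjusted p = 0.0473), against 1.06% of all genes. The RNA polymerase I list, which makes the rRNA precursor, had a median of 0.09 over 15 genes, 9 above 0 and 6 below, with 1 at an unadjusted p under 0.05. Without supernatant 1 its median was 0.15. Polr1a and Polr1b, the 2 largest subunits, were at 0.21 and 0.25.

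**Figure D5:**
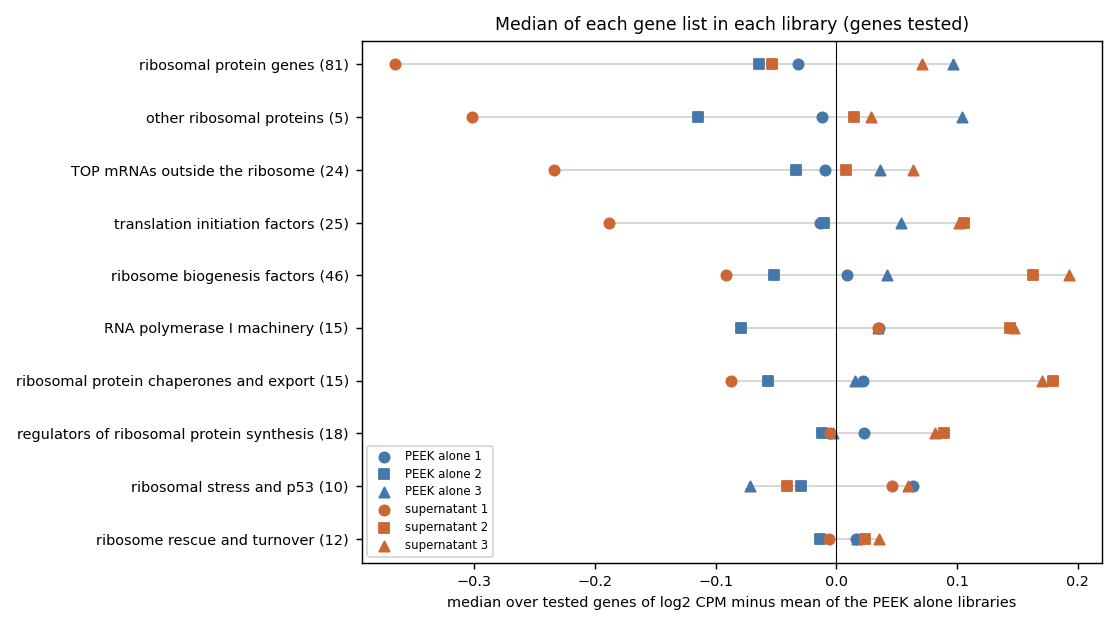
For each gene list (number of genes tested in parentheses), the median over its genes of log2 CPM minus the mean of the PEEK alone libraries, 1 marker per library. In supernatant 1 the ribosomal protein genes are at -0.37. The list of TOP mRNAs outside the ribosome, which includes some noncoding transcripts, is at -0.23 there. In supernatants 2 and 3 the biogenesis factors are at 0.16 and 0.19.

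Regulators of ribosomal protein synthesis had a median of 0.05 over 18 genes, with 3 at an unadjusted p under 0.05 (8.95% of all genes were), among them the transcription factor Myc at 0.24 ± 0.07 (SE; edgeR adjusted p = 0.37) and the kinase Mtor at 0.17. The list holds activators such as Myc and Mtor and inhibitors such as Tsc1, Tsc2 and Maf1, so its median gives no direction of synthesis. In supernatants 1 to 3 the median of this list was -0.01, 0.09 and 0.08 relative to the controls. The list's median log2 fold change without supernatant 1 was 0.10. Initiation factors had a median of 0.03 over 25 genes with 1 under that limit, Eif3b at 0.25, and Eif3j1 was at 0.15. Their list stood at -0.19, 0.11 and 0.10 in supernatants 1 to 3, and at 0.11 without supernatant 1. Chaperones and export factors of ribosomal proteins had a median of 0.06 over 15 genes with 0 under it, with the importins Ipo9 at 0.13 and Kpnb1 at 0.19. Of the 15, 13 had a log2 fold change above 0; the list stood at -0.09, 0.18 and 0.17 in supernatants 1 to 3, and at 0.17 without supernatant 1.

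Genes of ribosomal stress and p53 had a median of 0.00 over 10 genes, with 2 at an unadjusted p under 0.05 (against 8.95% of all genes), Ccng1 at -0.32 and Sesn2 at 0.39. The p53 target Cdkn1a was called without supernatant 1 (log2 fold change 1.15, edgeR adjusted p = 0.048), in a fit that called 1.06% of all genes, and not with it (0.65, adjusted p = 0.796). Ribosome rescue factors had a median of 0.00 over 12 genes with 1 under the limit, Pelo, which recognises stalled ribosomes, at 0.25, and Usp10 was at 0.18.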

How the data were processed

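Each library had a count column and an FPKM column in the deposited table, per the file headers. The submitters' processing notes name Cutadapt 1.9 and HISAT2 2.2.1. Genome build, annotation, counter, strand setting, use of molecular identifiers and handling of multi-mapping reads: not given in the sources used here. Deposited coordinates differ from those on GRCm38, so none were converted.

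Counts were tested with edgeR 4.0.16 in R 4.3.3 (TMM, filterByExpr with minimum count 10 and minimum total 15, quasi-likelihood test with group as the only term, Benjamini-Hochberg adjusted p under 0.05 over all 18177 genes). Standard errors are the log2 fold change divided by the square root of F. CPM use TMM-scaled library sizes; deviations use log2 CPM with a prior count of 2. Alternatives used DESeq2 1.42.0 and limma 3.58.1 on log2(FPKM + 1). Fits were tested on simulated counts. Copies were genes named after a member with -ps, rt or rg endings, and 5 names of the same form without a protein-coding type (Rps3a2, Rps3a3, Rps4l, Rpl6l, Rpl32l), compared with blastn 2.17.0. Pairs of libraries differed by a chi-square of 23.6 to 101 per gene and none were identical. The lowest values were 23.6 between PEEK alone 2 and 3 and 32.2 between supernatants 2 and 3. Every other pair was at 51.8 or more. Each library was counted as 1 replicate, although this check cannot show that cultures were separate. Same-numbered libraries of the 2 groups correlated at -0.03, -0.01 and 0.02 in their deviations, so numbers were not treated as pairs.

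The genes and lists were chosen with earlier results of these data known. Named genes were the 4 of largest and the 4 of smallest log2 fold change at 50 FPKM or more, the 4 highest and 4 lowest by FPKM, fixed genes and paralog pairs, and the 2 of smallest p per other list, of which 1 is not reported here; Rpl35a, Rpl21, Nolc1 and Cdkn1a were named after their values were seen.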

Additional observations from a re-analysis of the deposited data

How the results depend on the processing

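The count of called genes was 1 (Rpl7a) with DESeq2 in place of 0, and 0 to 1 when each library was left out, the 1 again being Rpl7a without supernatant 1. It was 0 under the other edgeR scalings and filters, limma on FPKM and a length offset. At an adjusted p under 0.01 it could only be 0, because the same edgeR fit called 0 of these genes at 0.05. Leaving out libraries moved the median log2 fold change between -0.19 and 0.01, the difference between 40S and 60S genes between -0.06 and -0.04, and the difference in share of counts between -0.297 and 0.143 percentage points, the highest of each of the first and last being without supernatant 1. With the replicate number as a block, 0 genes were called, the median was -0.11 and the subunit difference -0.05; with the block and a length offset they were -0.09 and -0.03. The block changed no call.

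Besides the single libraries left out, named genes crossed 0 without passing the test in 4 settings. With a length offset, Rpl4 was at 0.0016. Summed with its copies, Rpl17 was at -0.077 (edgeR) and -0.070 (DESeq2). Summing and leaving out supernatant 1 put Rplp0 at 0.077, Rpsa at 0.16, Rpl4 at 0.16, Rps4x at 0.062, Rplp1 at 0.039, Rplp2 at 0.00030, Rps6 at 0.081, Rpl5 at 0.15, Rpl11 at 0.015, Rps19 at 0.025, Rpl3 at 0.12, Rpl7 at 0.044 and Rpl10 at 0.029. The cause was not tested.

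Over single libraries left out, Rps2 ranged from -0.075 to 0.30, Rplp0 from -0.17 to 0.072, Rpsa from -0.14 to 0.16, Rpl4 from -0.11 to 0.15, Rps4x from -0.18 to 0.058, Rplp1 from -0.24 to 0.035, Rps6 from -0.18 to 0.074, Rpl5 from -0.13 to 0.15, Rpl11 from -0.19 to 0.010, Rps19 from -0.12 to 0.043, Rpl3 from -0.10 to 0.094, Rpl7 from -0.18 to 0.039 and Rpl10 from -0.23 to 0.024. The settings with summed copies were chosen after seeing the data. Of the genes that kept their sign, Rps27 moved most, from -1.45 to -0.15. With 3 libraries a group, changes of the size of the median displacement are not detectable gene by gene.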
